A study of Mus musculus with 17 samples.

Results

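The 29 genes described here make, sense, store, move and export cholesterol. They were chosen by symbol and not by a rule on their measured values, but with earlier results of these data known. All 29 were listed among the 20328 genes of the RNA-seq table. By role they fall into 7 genes of the early mevalonate steps, 11 genes that turn farnesyl units into cholesterol, 2 genes of sterol sensing, 4 genes of transport and storage inside the cell, 3 genes of efflux and 2 genes that make oxysterols. Cells build cholesterol from acetyl-CoA through mevalonate, squalene and lanosterol, under the transcription factor SREBP-2, which Srebf2 encodes and which is held back by INSIG proteins when sterol is plentiful. The brain makes its own cholesterol because lipoproteins of the blood hardly cross the blood-brain barrier, and astrocytes and oligodendrocytes are known as the main producers. Oxysterols activate the liver X receptors, one of which is encoded by Nr1h3, and these receptors switch on the exporters Abca1 and Abcg1.

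The study asked what a vector carrying the human NDST3 gene does in a mouse model of Parkinson's disease (PD). ICR mice of wild-type genotype, 8 weeks old at the lesion, received the toxin 6-OHDA (10 µg per µl) on one side of the substantia nigra, and this is the 6-OHDA-induced PD model. In the NDST3-treated PD model, 2 µl of an AAV9 vector with NDST3 under a CMV promoter, which is active in many cell types, was given at the same place 5 days later, and the sham group served as the control. RNA-seq had 2 sham libraries, 1 library of the 6-OHDA-induced PD model and 2 with NDST3. For the active chromatin mark H3K27ac, CUT&RUN had 2 libraries per group, and ATAC-seq, which maps open chromatin, had 1. The scRNA-seq means cover the 6-OHDA and 6-OHDA+NDST3 libraries, and the sham scRNA-seq library was not analysed here. The RNA-seq table lists mouse genes, so the level of the human transgene cannot be read from it.

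Total counts were between 51003699 and 70533326 per RNA-seq library, and the lowest count of any of the 29 genes was 59, for Ch25h in a sham library. The summed level of 8 markers of dopaminergic neurons was 904 to 941 CPM (counts relative to the library total, scaled by edgeR's TMM factors) in sham, 167 in the 6-OHDA library and 276 to 292 with NDST3, and all 8 fell in the first comparison. Other cell types shifted too. The 8 tested microglia markers summed to 298 to 391 CPM in sham, 2324 in the 6-OHDA library and 807 to 1330 with NDST3, and the 8 markers of monocytes or macrophages to 54.4 to 265, 4077 and 940 to 1685. The 11 neuron markers went the other way, from 7452 to 8295 CPM in sham to 2850 in the 6-OHDA library, with 5862 to 6715 after NDST3. Astrocyte markers summed to 6592 to 7768, 13220 and 8841 to 9265 CPM, and oligodendrocyte markers to 14220 to 15030, 17370 and 12370 to 15960. From sham to the 6-OHDA library, 5 of the 10 astrocyte markers were called higher and 1 lower (edgeR, adjusted p under 0.05). Of the 9 oligodendrocyte markers, 1 was called higher and 0 lower. The second NDST3 library stood apart by its markers of choroid plexus, at 1103 CPM against 7.16 to 53.6 in the others. In bulk tissue, fewer cells of a type and less RNA per cell cannot be told apart, and the part of these shifts in the results below was not tested. Nothing in the labels says whether the libraries of a group come from separate animals, so the p-values measure the spread between these libraries.

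Promoter sequences of 23 of the 29 genes were found in the RefSeq table of GRCm38.p6. Those of Fdps, Fdft1, Sqle, Stard4, Npc1 and Abcg1 were not. The 250 bases before the start site were searched on both strands for 3 motifs. The letters TCACNCCAC, a strict form of the sterol response element that SREBP-2 binds, were present in 1 of the 23 genes, Hmgcs1. They were present in 1.22% of all 27025 genes of the table. The CCAAT box, bound by NF-Y, was present in 19 of 23, and in 14 of the 15 synthesis genes that had a sequence, against 37.5% of all genes. The GC box GGGCGG was present in 19 of 23, against 35.4% of all genes. The 4 genes without a CCAAT box were Acat2, Nr1h3, Abca1 and Ch25h. A match describes the letters and is no evidence of binding. Likewise, a missing match to these exact letters is no evidence that a site is absent. The shares of matches per window were 1.05%, 33.8% and 32.7% over all 32851 windows. The 6 promoters below are examples from the groups that moved apart in the RNA: 4 genes of synthesis and sensing that fell, and 2 genes of efflux and oxysterols that rose. Their motifs do not stand for the whole groups. Npc2 and Soat1, which rose, have a CCAAT box, and Acat2, which fell, has none. Capitals mark the 3 motifs on either strand, and each sequence runs 5′ to 3′ on the gene's strand.

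Hmgcs1 (GRCm38.p6, chr13:119690101-119690350, plus strand): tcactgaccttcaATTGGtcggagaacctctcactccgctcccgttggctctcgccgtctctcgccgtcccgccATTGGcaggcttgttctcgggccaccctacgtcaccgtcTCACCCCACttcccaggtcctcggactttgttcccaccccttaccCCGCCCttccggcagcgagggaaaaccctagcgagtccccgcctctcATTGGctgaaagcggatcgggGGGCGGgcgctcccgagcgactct
Idi1 (GRCm38.p6, chr13:8885356-8885605, plus strand): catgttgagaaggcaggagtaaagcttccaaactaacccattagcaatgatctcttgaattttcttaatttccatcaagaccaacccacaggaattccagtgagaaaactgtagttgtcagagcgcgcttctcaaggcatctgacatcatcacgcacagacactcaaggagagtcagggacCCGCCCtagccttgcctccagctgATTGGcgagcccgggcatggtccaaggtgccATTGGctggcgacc
Cyp51 (GRCm38.p6, chr5:4104698-4104947, minus strand): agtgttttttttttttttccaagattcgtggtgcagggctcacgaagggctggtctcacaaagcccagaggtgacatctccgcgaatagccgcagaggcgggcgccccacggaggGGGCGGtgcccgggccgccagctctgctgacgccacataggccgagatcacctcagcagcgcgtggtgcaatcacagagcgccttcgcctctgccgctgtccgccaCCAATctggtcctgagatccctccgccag
Insig1 (GRCm38.p6, chr5:28071162-28071411, plus strand): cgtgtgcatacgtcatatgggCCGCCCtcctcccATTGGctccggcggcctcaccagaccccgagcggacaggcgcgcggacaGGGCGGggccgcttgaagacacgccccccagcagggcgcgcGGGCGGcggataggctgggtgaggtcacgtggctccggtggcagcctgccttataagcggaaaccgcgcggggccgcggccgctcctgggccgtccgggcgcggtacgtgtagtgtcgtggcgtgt
Abca1 (GRCm38.p6, chr4:53159896-53160145, minus strand): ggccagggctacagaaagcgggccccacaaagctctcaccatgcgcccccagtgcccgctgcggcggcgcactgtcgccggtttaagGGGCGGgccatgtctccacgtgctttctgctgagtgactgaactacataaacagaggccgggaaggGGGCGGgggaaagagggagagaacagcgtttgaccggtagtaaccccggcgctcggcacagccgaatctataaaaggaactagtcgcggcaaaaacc
Ch25h (GRCm38.p6, chr19:34475149-34475398, minus strand): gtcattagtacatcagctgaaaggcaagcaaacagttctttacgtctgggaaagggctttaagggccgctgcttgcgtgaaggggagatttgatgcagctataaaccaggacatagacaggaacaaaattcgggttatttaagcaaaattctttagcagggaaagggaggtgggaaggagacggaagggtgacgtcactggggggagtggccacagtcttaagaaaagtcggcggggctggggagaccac

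Levels per gene length (TPM, the deposited length-scaled abundance) put synthesis genes at the top in sham. Hmgcs1 came first with 215 ± 3.89 TPM (SD, n = 2), followed by Msmo1 with 119 ± 14.5, Fdps with 116 ± 4.74 and Srebf2 with 108 ± 2.70. Msmo1 overlapped with both Fdps and Srebf2 between the sham libraries, so its place is not settled, while Fdps lay above Srebf2 in both. At the bottom were Nr1h3 with 4.67 ± 1.47 and Ch25h with 3.48 ± 2.79 TPM, which overlapped as well. In the 6-OHDA library the order was led by Npc2 at 289 TPM and Abca1 at 119, ahead of Hmgcs1 at 97.1, Soat1 at 69.8 and Abcg1 at 68.3. With NDST3, Npc2 was at 167 ± 38.1 TPM, Hmgcs1 at 119 ± 10.6 and Cyp46a1 at 101 ± 18.1, and the values of Hmgcs1 and Cyp46a1 overlapped between the libraries.

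The lesion split the genes by role. In the 6-OHDA-induced PD model, 15 of the 18 synthesis genes and both sensing genes were lower than in sham, while all 3 efflux genes, Npc2, Soat1 and Ch25h were higher. In all, 18 of the 29 genes fell and 6 rose at an adjusted p under 0.05 (quasi-likelihood F test of edgeR, p-values adjusted by Benjamini-Hochberg over 19300 genes), where 17.1% of all tested genes fell and 18.8% rose. The median log2 fold change was -0.92 over the 18 synthesis genes and 0.00 over all tested genes. The 5 genes without a call were Mvk, Hsd17b7, Ebp, Npc1 and Cyp46a1.

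**Figure D1:**
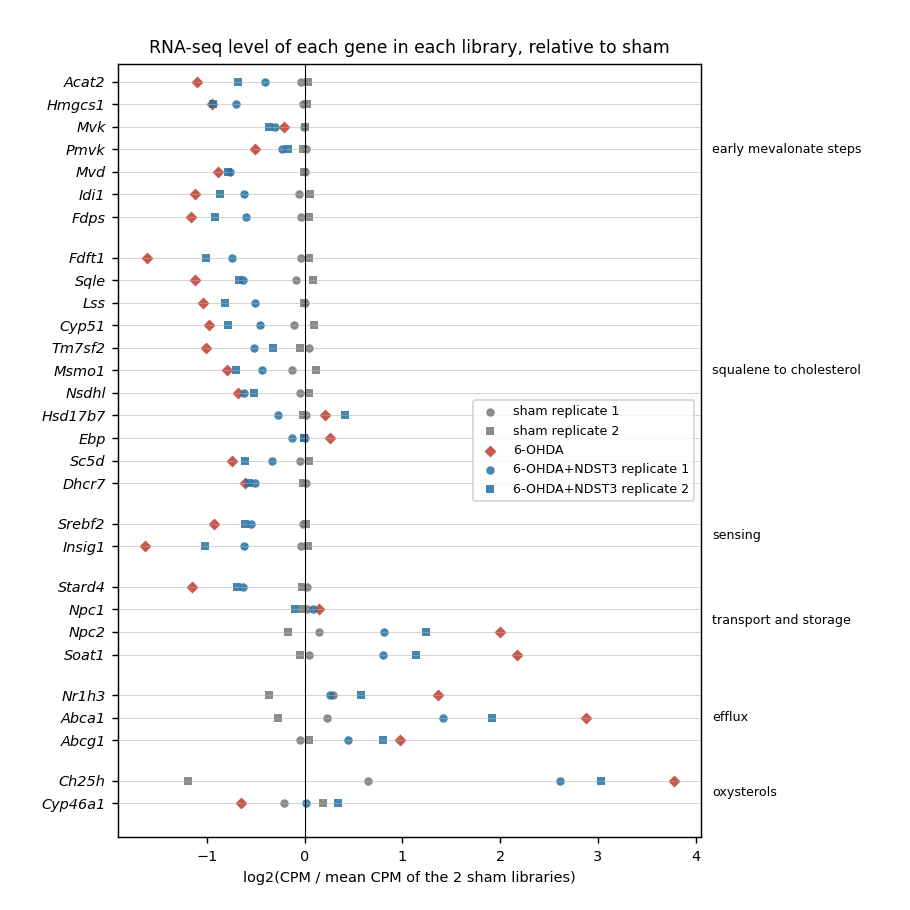
RNA-seq level of each of the 29 genes (rows, grouped by role) in each of the 5 libraries, as the log2 ratio of its CPM to the mean CPM of the 2 sham libraries. Grey points are sham, red diamonds the single 6-OHDA library and blue points the 2 NDST3-treated libraries; synthesis genes lie left of 0 in the 6-OHDA library apart from Hsd17b7 and Ebp, and Npc2, Soat1, Nr1h3, Abca1, Abcg1 and Ch25h lie right of it.

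The early mevalonate steps fell nearly throughout. Hmgcs1, which makes the substrate of the rate-limiting step of the pathway (chromosome 13 of GRCm38, 119690351 to 119708260), was at 302 and 311 CPM in sham, 158.7 in the 6-OHDA library and 188 and 160.5 with NDST3. It fell by 0.95 on the log2 scale in the 6-OHDA-induced PD model (SE 0.14, adjusted p = 0.0106, edgeR), and the second NDST3 library was hardly above the 6-OHDA library. Acat2, the cytosolic thiolase at the entry of the pathway, was at 63.0 and 65.9 CPM in sham, 30.1 in the 6-OHDA library and 48.5 and 40.1 with NDST3, and fell by 1.10 (SE 0.16, adjusted p = 0.00991, edgeR). Fdps, which makes farnesyl diphosphate, was at 57.8 and 61.1 CPM in sham, 26.7 in the 6-OHDA library and 39.2 and 31.6 with NDST3, and fell by 1.16 (SE 0.17, adjusted p = 0.0105, edgeR). For each of these 3 genes all sham values lay above those of the other 3 libraries.

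Idi1, the isomerase of the isoprene unit, was at 51.4 and 55.4 CPM in sham, 24.6 in the 6-OHDA library and 34.7 and 29.3 with NDST3, and fell by 1.12 in the first comparison (SE 0.16, adjusted p = 0.00970, edgeR). Mvd, the decarboxylase that closes the mevalonate steps, went from 21.4 and 21.3 CPM in sham to 11.5 in the 6-OHDA library, with 12.6 and 12.4 after NDST3, and fell by 0.89 (SE 0.14, adjusted p = 0.0119, edgeR). Pmvk, the second kinase, fell least of the called genes of the group, and fell by 0.51 (SE 0.12, adjusted p = 0.0289, edgeR), with 37.7 and 36.8 CPM in sham, 26.2 in the 6-OHDA library and 31.8 and 33.1 with NDST3. In all 3 genes the sham libraries were the highest and the single 6-OHDA library the lowest. Mvk, the first kinase, was at 21.1 and 21.2 CPM in sham against 18.2 in the 6-OHDA library and did not pass (log2 fold change -0.21, 95% confidence interval -0.56 to 0.13, adjusted p = 0.262, edgeR).

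Among the genes from squalene to cholesterol, the fall was largest for Fdft1. This gene encodes squalene synthase, the first enzyme that commits carbon to sterols (chromosome 14, 63145150 to 63181687). It was at 96.8 and 102 CPM in sham, 32.6 in the 6-OHDA library and 59.6 and 49.4 with NDST3, and fell by 1.61 on the log2 scale (SE 0.16, adjusted p = 0.00823, edgeR). Sham was highest, the 6-OHDA library lowest, and both NDST3 libraries were in between without overlap. Its span overlaps that of Ctsb, a lysosomal protease gene, and whether the counting used the strand is not stated. Sqle, the squalene epoxidase, was at 77.7 and 87.2 CPM in sham, 37.9 in the 6-OHDA library and 53.2 and 51.7 with NDST3, and fell by 1.12 (SE 0.12, adjusted p = 0.00823, edgeR).

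Lss, which closes the sterol rings, was at 45.7 and 45.5 CPM in sham, 22.1 in the 6-OHDA library and 32.2 and 26.0 with NDST3, and fell by 1.04 (SE 0.17, adjusted p = 0.0126, edgeR). Cyp51, the lanosterol demethylase, was at 94.7 and 109 CPM in sham, 51.8 in the 6-OHDA library and 74.2 and 59.2 with NDST3, and fell by 0.97 (SE 0.18, adjusted p = 0.0172, edgeR). The sterol reductase gene Tm7sf2 was at 13.9 and 13.01 CPM in sham, 6.66 in the 6-OHDA library and 9.39 and 10.7 with NDST3, and fell by 1.01 (SE 0.18, adjusted p = 0.0158, edgeR). All 3 had their highest values in sham and their lowest in the 6-OHDA library.

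Msmo1 and Nsdhl, which together remove methyl groups from the ring, fell by 0.79 and 0.68 on the log2 scale (adjusted p = 0.0260 and 0.0194, edgeR). Msmo1 was at 82.2 and 97.99 CPM in sham, 52.0 in the 6-OHDA library and 66.4 and 55.3 with NDST3. Nsdhl was at 32.2 and 34.2 CPM in sham, 20.8 in the 6-OHDA library and 21.6 and 23.2 with NDST3. Their sham libraries lay above all others.

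The late enzymes were split. Sc5d, the sterol desaturase, was at 75.8 and 81.0 CPM in sham, 46.9 in the 6-OHDA library and 62.4 and 51.5 with NDST3, and fell by 0.74 (SE 0.15, adjusted p = 0.0217, edgeR). Dhcr7, the reductase of the last step in one branch, was at 49.4 and 48.4 CPM in sham, 32.1 in the 6-OHDA library and 34.3 and 33.0 with NDST3, and fell by 0.61 (SE 0.11, adjusted p = 0.0162, edgeR). By contrast Ebp, the sterol isomerase, was at 20.2 and 20.1 CPM in sham and 24.2 in the 6-OHDA library (log2 fold change 0.26, 95% confidence interval -0.09 to 0.61, adjusted p = 0.189, edgeR). Hsd17b7, a sterol ketone reductase, was at 15.6 and 15.2 CPM in sham, 17.7 in the 6-OHDA library and 12.7 and 20.5 with NDST3 (log2 fold change 0.20 in the first comparison, 95% confidence interval -0.56 to 0.96, adjusted p = 0.620, edgeR). Its 2 NDST3 libraries lay on either side of all the others.

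Both sensing genes fell with the synthesis genes. Insig1, a retention protein of SREBP and itself an SREBP target (chromosome 5, 28071412 to 28078662), was at 97.6 and 102 CPM in sham, 32.2 in the 6-OHDA library and 64.9 and 49.2 with NDST3. It fell by 1.63 on the log2 scale (SE 0.20, adjusted p = 0.00863, edgeR), the largest fall of the 29 genes, with Fdft1 within the standard error of it. Srebf2 was at 217 and 223 CPM in sham, 116 in the 6-OHDA library and 150.4 and 144 with NDST3, and fell by 0.93 (SE 0.11, adjusted p = 0.00847, edgeR). The 3 groups did not overlap in either gene.

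The transport and storage genes did not move as one. Stard4, a carrier of sterol between membranes that is under SREBP control, was at 55.5 and 53.4 CPM in sham, 24.4 in the 6-OHDA library and 35.3 and 33.7 with NDST3, and fell by 1.16 (SE 0.12, adjusted p = 0.00823, edgeR). Npc2, the soluble lysosomal protein that hands over free cholesterol (chromosome 12, 84754559 to 84773112), was at 123 and 98.5 CPM in sham, 443 in the 6-OHDA library and 195 and 262 with NDST3, and rose by 2.0 (SE 0.22, adjusted p = 0.00834, edgeR). Its membrane partner Npc1 was at 124 and 120.4 CPM in sham, 136 in the 6-OHDA library and 129.9 and 114 with NDST3, and did not pass (log2 fold change 0.15, 95% confidence interval -0.16 to 0.46, adjusted p = 0.374, edgeR). So of the pair that empties lysosomes of cholesterol, Npc2 was 3.999-fold higher after the lesion and Npc1 1.11-fold.

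Soat1, the enzyme that esterifies cholesterol for storage in droplets (chromosome 1, 156428108 to 156474328), was at 35.8 and 33.5 CPM in sham, 156 in the 6-OHDA library and 60.2 and 76.1 with NDST3. It rose by 2.17 on the log2 scale (SE 0.16, adjusted p = 0.00823, edgeR), which is 4.51-fold, and the 3 groups did not overlap.

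The 3 efflux genes were called higher, Nr1h3 less firmly than the exporters. Abca1, which loads cholesterol onto lipid-poor apolipoproteins (chromosome 4, 53030789 to 53159988), was at 91.5 and 64.9 CPM in sham, 575 in the 6-OHDA library and 209 and 295 with NDST3. It rose by 2.88 (SE 0.28, adjusted p = 0.00823, edgeR), or 7.36-fold. Abcg1, the partner exporter, was at 91.9 and 98.4 CPM in sham, 186 in the 6-OHDA library and 129.8 and 165 with NDST3, and rose by 0.97 (SE 0.17, adjusted p = 0.0139, edgeR). Nr1h3 was low, at 4.21 and 2.68 CPM in sham, 8.85 in the 6-OHDA library and 4.12 and 5.13 with NDST3, and rose by 1.36 (SE 0.34, adjusted p = 0.0352, edgeR). This call was lost in both limma fits, and over all alternatives its adjusted p ran from 0.00670 to 0.138. The NDST3 libraries overlapped with sham for Nr1h3 and were separate from sham for the 2 exporters.

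Ch25h, which turns cholesterol into an oxysterol and is known from activated macrophages (chromosome 19, 34473783 to 34475148), had 157 and 59 counts in sham, 1384 in the 6-OHDA library and 711 and 950 with NDST3, or 3.05 and 0.855, 26.8, and 11.9 and 15.9 CPM. It had the largest change of the 29 genes, a rise of 3.80 on the log2 scale (95% confidence interval 2.07 to 5.53, adjusted p = 0.0147, edgeR), and its sham libraries were themselves far apart. Without sham replicate 1 its log2 fold change was 4.97 and without sham replicate 2 it was 3.13. Cyp46a1, the neuronal enzyme through which the brain clears cholesterol, was at 70.0 and 92.6 CPM in sham, 51.9 in the 6-OHDA library and 82.0 and 103 with NDST3. It did not pass in the first comparison (log2 fold change -0.65, 95% confidence interval -1.24 to -0.05, adjusted p = 0.0850, edgeR), although the 6-OHDA library was the lowest of the 5. The rise of Npc2, Soat1, Nr1h3, Abca1, Abcg1 and Ch25h went with the summed microglia and macrophage markers given above, which were also highest in the 6-OHDA library. The same holds for other lists: markers of mural cells or fibroblasts summed to 358 to 545 CPM in sham, 1659 in the 6-OHDA library and 276 to 365 with NDST3. Those of oligodendrocyte precursors summed to 220.2 to 280.2, 633 and 325 to 399.6, and those of the 3 tested neutrophil genes to 7.92 to 11.5, 105 and 35.1 to 64.7. The astrocyte sum was highest in the 6-OHDA library as well, although 1 of its 10 markers was called lower there. Which of these cells carried the rise was not tested.

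With either sham library left out, sham has a single library like 6-OHDA, and edgeR made no call at an adjusted p under 0.05. All 24 genes called with every library kept their direction then. The single 6-OHDA library has no replicate, and the test assumes that it varies like the other groups.

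**Figure D2:**
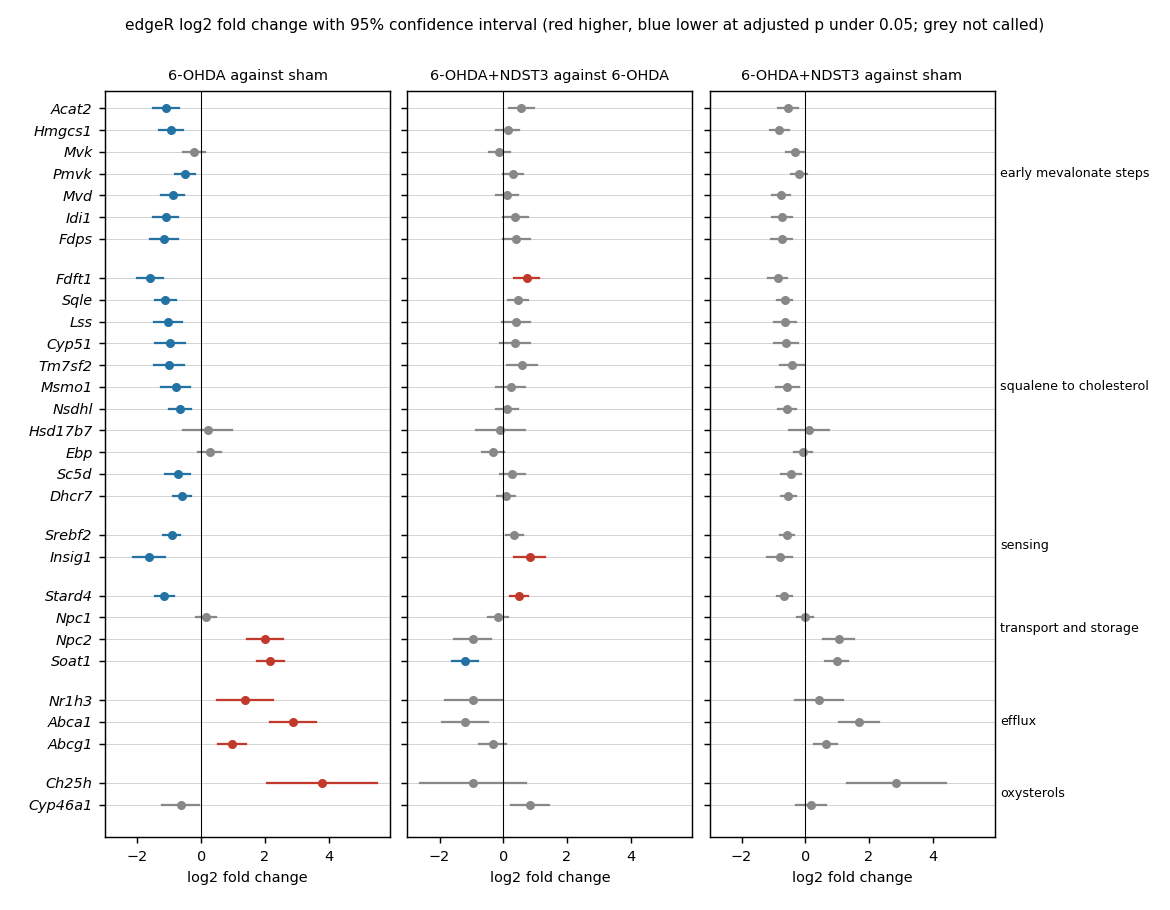
edgeR log2 fold change (horizontal axis) of each gene with its 95% confidence interval in the 3 comparisons. Red marks genes that were higher and blue genes that were lower at an adjusted p under 0.05, and grey genes that were not called, with 24 coloured in the left panel, 4 in the middle and 0 on the right.

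Between the NDST3-treated and the 6-OHDA-induced PD model, 4 of the 29 genes were called, 3 higher and 1 lower, where 9.06% of all tested genes were higher and 6.59% lower. This comparison uses the same single 6-OHDA library as the one above. Fdft1 rose by 0.74 on the log2 scale (SE 0.15, adjusted p = 0.0420, edgeR), Insig1 by 0.83 (SE 0.19, adjusted p = 0.04998, edgeR, just under the threshold) and Stard4 by 0.50 (SE 0.11, adjusted p = 0.0491, edgeR). Soat1 fell by 1.20 (SE 0.16, adjusted p = 0.0320, edgeR). In these 4 genes both NDST3 libraries lay on the sham side of the 6-OHDA library.

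The other genes of synthesis had small differences with intervals that mostly reached 0. Sqle had a log2 fold change of 0.47 (95% confidence interval 0.16 to 0.78, adjusted p = 0.0583, edgeR), Acat2 of 0.56 (0.17 to 0.95, adjusted p = 0.0664) and Tm7sf2 of 0.59 (0.13 to 1.06, adjusted p = 0.0826). Hmgcs1, at 0.14 (-0.22 to 0.49), Mvd, at 0.12 (-0.24 to 0.47), and Dhcr7, at 0.07 (-0.21 to 0.35), were close to the 6-OHDA library. The median over the 18 synthesis genes was 0.29, beside 0.00 over all tested genes, and 15 of the 18 had a positive value, beside 50.2% of all tested genes.

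Abca1 was 2.29-fold lower with NDST3 (log2 fold change -1.19, 95% confidence interval -1.92 to -0.46, adjusted p = 0.0518, edgeR) and Npc2 1.94-fold lower (-0.95, interval -1.54 to -0.37, adjusted p = 0.0518), both just past the threshold. Abcg1, at -0.34 (-0.77 to 0.10), and Ch25h, at -0.94 (-2.60 to 0.72), had intervals that include 0. Cyp46a1 had a log2 fold change of 0.83 (0.24 to 1.43, adjusted p = 0.0690, edgeR), and here 8 of the 11 neuron markers rose. The 4 calls depend on the fit: leaving out NDST3 replicate 1, or either sham library, left 0 genes called, leaving out NDST3 replicate 2 left 7, and DESeq2 called 10.

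Compared with sham, the NDST3-treated PD model still had low synthesis genes. For 20 of the 29 genes both NDST3 libraries lay below both sham libraries, and for 5 genes (Npc2, Soat1, Abca1, Abcg1 and Ch25h) above both, where 22.4% of all tested genes lay below and 26.5% above. The genes that overlapped were Hsd17b7, Npc1, Nr1h3 and Cyp46a1. No gene of the 19300 passed an adjusted p under 0.05 in edgeR's test. At an unadjusted p under 0.05, 18 of the 29 genes were lower and 5 higher, beside 4.39% and 9.82% of all tested genes, and DESeq2 gave 16 lower and 5 higher at an adjusted p under 0.05, beside 1.21% and 5.04% of the 16781 genes it tested.

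Among the genes below sham, Fdft1 had a log2 fold change of -0.87 against sham (95% confidence interval -1.18 to -0.56), Hmgcs1 of -0.82 (-1.10 to -0.53), Insig1 of -0.81 (-1.20 to -0.42) and Mvd of -0.77 (-1.06 to -0.49). Srebf2, at -0.58 (-0.80 to -0.36), and Stard4, at -0.66 (-0.89 to -0.43), were lower by similar amounts. On the other side Ch25h had a log2 fold change of 2.86 (1.31 to 4.40), Abca1 of 1.69 (1.06 to 2.32), Npc2 of 1.05 (0.55 to 1.54) and Soat1 of 0.98 (0.62 to 1.33). The other efflux genes had smaller values, 0.63 for Abcg1 (0.27 to 1.00) and 0.43 for Nr1h3 (-0.32 to 1.18), so that the median of the 3 efflux genes was 0.63 beside -0.57 for the 18 synthesis genes. None of these 12 genes passed after adjustment in edgeR, with the lowest adjusted p at 0.152.

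Of the 24 genes called in the first comparison, 21 had their value in the second NDST3 library nearer to the 6-OHDA library than in the first, beside 81.7% of all 6916 genes called there, so this is a general trait of the library. The same library had the higher microglia sum of the 2 (1330 against 807 CPM) and the lower neuron sum (5862 against 6715 CPM), and the part of these in the result was not tested. The study's own rule, a fold of at least 2 with an unadjusted p under 0.05, was applied here to edgeR's fold changes and p-values. By it the 3 comparisons called 14, 2 and 3 of the 29 genes, beside 24.5%, 15.7% and 5.86% of all tested genes.

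Related pathways moved in their own way. Of 24 other sterol genes (processing, uptake, ester hydrolysis and further efflux), 12 rose and 2 fell in the 6-OHDA-induced PD model, beside 18.8% and 17.1% of all tested genes, with a median log2 fold change of 0.42. Plin2, the droplet coat protein, was at 17.4 and 9.47 CPM in sham, 118 in the 6-OHDA library and 33.7 and 50.6 with NDST3, and rose by 3.14 (SE 0.40, adjusted p = 0.00889, edgeR). Lipa, the lysosomal lipase that frees cholesterol from its esters, was at 41.0 and 38.3, 154, and 61.6 and 87.3 CPM, and rose by 1.96 (SE 0.21, adjusted p = 0.00823, edgeR). Mylip, a target of liver X receptors that degrades lipoprotein receptors, was at 18.9 and 15.3, 70.0, and 28.9 and 36.4 CPM, and rose by 2.03 (SE 0.20, adjusted p = 0.00823, edgeR). All 3 had the 6-OHDA library highest and the NDST3 libraries between it and sham.

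Soat2, the second esterifying enzyme, rose by 2.67 as well but was at 0.813 CPM or less in every library. With NDST3, 4 of the 24 fell and 1 rose, beside 6.59% and 9.06% of all tested genes. Among those that fell, Lipa fell by 1.05, Mylip by 1.10 and Apod, a glial apolipoprotein, by 1.33 on the log2 scale (largest adjusted p = 0.0419, edgeR). Fatty acid synthesis, which is under the related factor SREBP-1, had 5 of 13 genes lower and 0 higher after the lesion by edgeR's adjusted p (2 were higher at an unadjusted p under 0.05), beside 17.1% and 18.8% of all tested genes, with a median log2 fold change of -0.35. Srebf1, which encodes SREBP-1 and is one of the 24 sterol genes, rose by 1.26 (SE 0.15, adjusted p = 0.00847, edgeR), from 138 and 114 CPM in sham to 302 in the 6-OHDA library, with 189 and 206 after NDST3, and is named here after its values were seen. Acss2, which makes acetyl-CoA from acetate, fell by 1.22 (SE 0.12, adjusted p = 0.00823, edgeR) and Tecr, an elongation reductase, by 1.10 (SE 0.15, adjusted p = 0.00943). Relative to the 6-OHDA library, NDST3 gave 2 of the 13 higher and, by edgeR's adjusted p, 0 lower, with 5 higher and 0 lower at an unadjusted p under 0.05, beside 9.06% and 6.59% of all tested genes by the adjusted p. Against sham, edgeR called 0 genes of either list at an adjusted p under 0.05, with 6 sterol genes higher and 4 fatty acid genes lower at an unadjusted p under 0.05.

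At the promoters, H3K27ac gave no uniform direction. The table listed 26 regions at 17 of the 29 genes, each near a start site, with 1 value of tag signal per group although each group had 2 libraries, so no error can be given. In the 6-OHDA-induced PD model, 6 of the 26 regions were higher and 6 lower than sham by at least 1.5-fold (after adding 1 to each signal), where 22.2% of the 11326 regions were higher and 12.8% lower. Every listed region had an NDST3 signal at or above that of 6-OHDA, and the part of this selection in the step from sham to 6-OHDA was not tested. The coordinates of the table were not used, because they put 3.24% of 9080 regions within 100 bases of their stated distance from a GRCm38 start of the same gene. Distances below are those of the table.

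**Figure D3:**
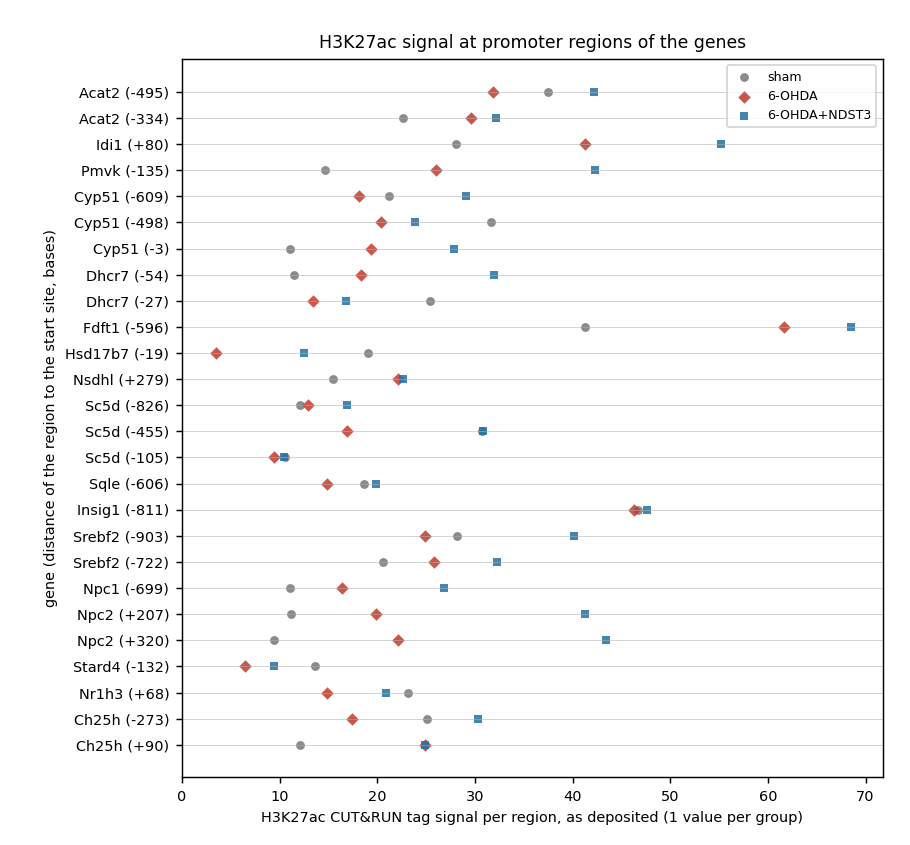
H3K27ac CUT&RUN tag signal (horizontal axis, as deposited, 1 value per group) at 26 promoter regions, each named by its gene and its distance in bases from the start site. Grey is sham, red the 6-OHDA-induced and blue the NDST3-treated PD model. In every listed region the NDST3 value is at or above that of 6-OHDA. The 2 Npc2 regions are lowest in sham and highest with NDST3, and Hsd17b7 has its lowest value in 6-OHDA.

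Npc2 differed most from sham in the upward direction, with a signal of 9.46 in sham, 22.1 in 6-OHDA and 43.5 with NDST3 at 320 bases after the start, and 11.2, 19.9 and 41.2 at 207 bases. Ch25h went from 12.1 in sham to 24.9 in both other groups at 90 bases after the start, but from 25.1 to 17.4 and then 30.3 at position -273. Hsd17b7 differed most in the downward direction, from 19.0 in sham to 3.50 in 6-OHDA with 12.5 after NDST3, at 19 bases before the start. Npc2 and Ch25h were also higher in the RNA, while Hsd17b7 was not called there.

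Among the synthesis genes that fell in the RNA, the regions pointed both ways. Cyp51 had 11.1 in sham, 19.4 in 6-OHDA and 27.8 with NDST3 at 3 bases before the start, but 31.7, 20.4 and 23.9 at position -498. Dhcr7 had 11.5, 18.4 and 31.9 at 54 bases and 25.4, 13.4 and 16.8 at 27 bases before a start, in 2 regions that went opposite ways from sham to 6-OHDA. Whether both distances are from the same start of Dhcr7 is not known. Pmvk went from 14.6 to 26.1 and 42.3, whereas Sc5d went from 30.7 to 16.9 and 30.8 at position -455. Insig1, whose RNA fell most, had 46.8, 46.3 and 47.6.

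Stard4, lower in the RNA, had a signal of 13.6 in sham, 6.45 in 6-OHDA and 9.43 with NDST3, and Nr1h3, higher in the RNA, had 23.2, 14.9 and 20.9. Idi1 had 28.1, 41.3 and 55.2, and Fdft1 41.2, 61.7 and 68.5, both with lower RNA. In the step from 6-OHDA to NDST3, 10 of the 26 regions were at least 1.5-fold higher and 0 lower, beside 32.1% and 0.0% of all regions. In this table the NDST3 signal was at or above that of 6-OHDA in all 11424 regions (425 of them equal), so this direction is fixed by which regions are listed, and the median region was 1.31-fold higher.

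The ATAC-seq table listed 2 of the 29 genes. Abca1, at position -48 from its start, had a signal of 149 in sham, 198 in 6-OHDA and 199 with NDST3. Tm7sf2, at position -510, had 48.7, 67.0 and 75.1. Neither region reached 2-fold in the step from sham to 6-OHDA, where 4.55% of the 3537 regions were higher and 5.06% lower, or from 6-OHDA to NDST3, where 4.27% were higher and 3.48% lower. The median region was 1.08-fold higher in each step.

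The scRNA-seq table gave a mean per gene, cluster and library, as the natural log of 1 plus the normalized count, for 9 clusters in the 6-OHDA and 6-OHDA+NDST3 libraries. By markers, cluster 1 was neutrophil-like (highest for 6 of 6 markers), cluster 3 macrophage-like (6 of 8 markers of monocytes or macrophages), cluster 4 T cell-like (8 of 8), cluster 5 mural cell-like (7 of 10 markers of mural cells or fibroblasts), cluster 6 microglia-like (7 of 9), cluster 7 endothelial-like (6 of 6) and cluster 9 B cell-like (7 of 7). Cluster 3 also had all 9 microglia markers above a mean of 0.1 and was highest for 2 of them, so its name does not set it apart from microglia. The median of these markers was 0.629 in cluster 3 and 1.34 in cluster 6. Cluster 2 was highest for 9 of 10 astrocyte markers, 8 of 9 oligodendrocyte markers and 4 of 4 choroid plexus markers, led by Dbi, Mt3 and Clu, and stays unnamed as a mixture. Cluster 8, with Il23r and Trdc among its leading genes, had all 8 T cell markers above a mean of 0.1 but was highest for none of them. It had 8 of the 9 microglia markers above 0.1 as well, with a median of 0.223 beside 0.995 for the T cell markers, and is also unnamed. No cluster had more than 1 of the 11 neuron markers above a mean of 0.1, so neurons are hardly represented. The cells had been dissociated and cleared of myelin debris on a Percoll gradient, which can set which cells are left.

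**Figure D4:**
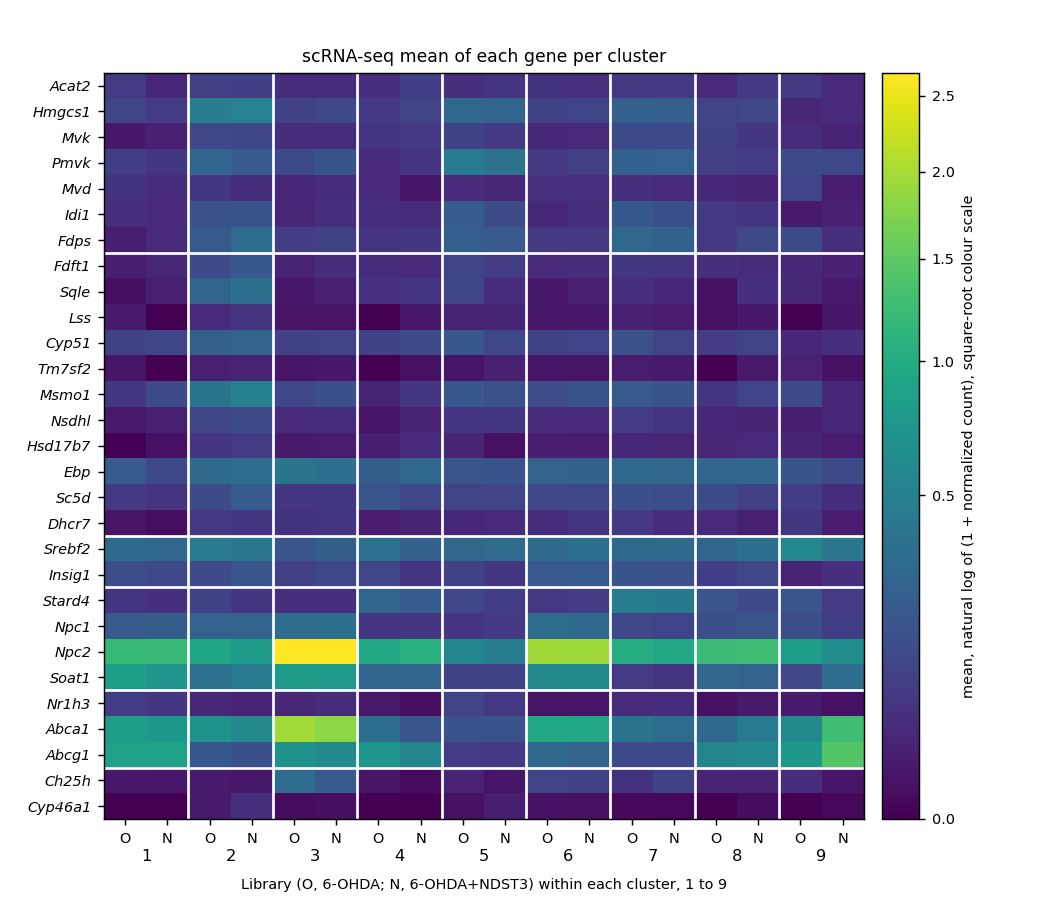
Mean of each of the 29 genes (rows, by role) in the 9 scRNA-seq clusters for the 6-OHDA (O) and 6-OHDA+NDST3 (N) libraries, as the natural log of 1 plus the normalized count on a square-root colour scale. Most synthesis genes are brightest in cluster 2, and Npc2 and Abca1 in cluster 3.

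Of the 18 synthesis genes, 12 had their highest mean over both libraries in cluster 2, the mixture of astrocyte and oligodendrocyte markers. Among them Acat2 (0.094), Hsd17b7 (0.0747), Dhcr7 (0.0711), Lss (0.0485) and Tm7sf2 (0.0218) were below 0.1 even there. The share of all genes with their highest mean in cluster 2 was not computed. Above 0.1 in that cluster were 12 of 18, not the same 12, since Mvk, Pmvk, Idi1, Fdps and Ebp are among them. This count was 9 in the endothelial-like cluster 7, 8 in the mural cell-like cluster 5 and 5 in the macrophage-like cluster 3. Cluster 2 also had the largest share of all listed genes above 0.1, 34.7%, against 20.6% to 28.0% in the other clusters. Hmgcs1 was at 0.474 and 0.520 in cluster 2 (6-OHDA and NDST3), against 0.305 and 0.275 in cluster 5, its second highest, and 0.104 and 0.126 in cluster 3. Msmo1 was at 0.400 and 0.512 in cluster 2, at 0.205 and 0.179 in cluster 7, its second highest, and at 0.124 and 0.159 in cluster 3. Sqle was at 0.274 and 0.366 in cluster 2, at 0.116 and 0.0424 in cluster 5, its second highest, and at 0.0114 and 0.0197 in cluster 3. The exporter Abca1 was also well above 0.1 in cluster 2, at 0.716 and 0.591, which is higher than any synthesis gene there.

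The other synthesis genes had their highest mean over both libraries elsewhere. Pmvk (0.456 and 0.367) and Idi1 (0.225 and 0.140) had their highest mean in the mural cell-like cluster 5, Fdps (0.299 and 0.256) and Mvk (0.134 and 0.128) in the endothelial-like cluster 7, and Ebp (0.391 and 0.357) in cluster 3. Mvd was highest in cluster 9, where its means were 0.108 and 0.0169. Some places differed by library. In the NDST3 library alone Fdps (0.330) and Idi1 (0.182) were highest in cluster 2, and Dhcr7 and Mvd in cluster 6. In the 6-OHDA library alone Sc5d was highest in cluster 4 and Tm7sf2 in cluster 9. Srebf2 was spread over all clusters, from 0.187 to 0.577, and Insig1 was highest in the microglia-like cluster 6, at 0.210 and 0.211.

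The genes that rose in bulk RNA had their highest means in immune-like clusters, apart from Nr1h3. Most of the named clusters are immune-like, and the share of all genes with their highest mean in them was not computed. Npc2 was at 2.64 and 2.66 in the macrophage-like cluster 3 and at 1.96 and 1.94 in the microglia-like cluster 6, Abca1 at 1.97 and 1.84 in cluster 3 and 0.959 and 0.947 in cluster 6, and Ch25h at 0.323 and 0.218 in cluster 3 and 0.117 and 0.103 in cluster 6. Over both libraries Soat1 was highest in the neutrophil-like cluster 1, at 0.845 and 0.725, close to cluster 3 at 0.788 and 0.772, and with NDST3 alone it was highest in cluster 3. Abcg1 was highest over both libraries in the B cell-like cluster 9, at 0.756 and 1.42, beside cluster 1 at 0.869 and 0.870. In the 6-OHDA library alone Abcg1 was highest in cluster 1. Nr1h3 was below 0.12 in every cluster, with 0.114 and 0.0776 in cluster 5. Stard4, the transport gene that fell in bulk RNA, was highest in the endothelial-like cluster 7, at 0.482 and 0.432, Npc1 in cluster 3, at 0.340 and 0.345, and Cyp46a1 reached no more than 0.0504 anywhere.

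Between the 2 scRNA-seq libraries no pair of gene and cluster, of the 127 compared, differed by 1 on the log2 scale, as 0.0344% (higher with NDST3) and 0.0125% (lower) of all 63984 pairs did. At 0.25 on that scale, 3 of the 127 were higher and 2 lower, beside 1.59% and 1.86% of all pairs. The B cell-like cluster 9 held 4 of the 5: Abcg1 went from 0.756 to 1.42, Abca1 from 0.614 to 1.27 and Soat1 from 0.119 to 0.343, while Npc2 went from 0.829 to 0.626. The fifth was Abcg1 in the T cell-like cluster 4, from 0.736 to 0.558. The table holds no number of cells per cluster, so these differences carry no error.

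Within cluster 2, 10 of the 12 synthesis genes above 0.1 had a higher mean with NDST3 than in the 6-OHDA library, with a median difference of 0.05 on the log2 scale, beside 53.0% of 9833 genes and a median of 0.01. Most of the compared synthesis genes were also higher in clusters 3 (4 of 5, beside 55.9% of all genes), 4 (3 of 4, beside 52.9%), 6 (4 of 5, beside 55.9%) and 8 (5 of 6, beside 55.5%), and in cluster 1 it was 2 of 4 (51.7%). The direction was the other way in the mural cell-like cluster 5, where 1 of 10 was higher (46.8% of all genes), in the endothelial-like cluster 7, where 1 of 9 was (60.2%), and in the B cell-like cluster 9, where 0 of 5 were (43.2%). The largest of these medians, -0.12 in cluster 9, was far below the size rule, and with 1 library per group none of the differences was tested.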

How the data were processed

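The authors trimmed the RNA-seq reads, aligned them to mm10 with HISAT2 and deposited a read count per gene with FPKM and TPM values. Only genes with at least 1 count in every library are listed. Tests on the deposited counts used edgeR 4.0.16 under R 4.3.3: genes with low counts were removed with filterByExpr (19300 of 20328 kept), libraries were scaled with TMM factors, and the quasi-likelihood test was fitted with a mean per group over all 5 libraries. Dividing the absolute log2 fold change by the root of its F statistic gave the SE, and the Benjamini-Hochberg method adjusted the p-values. TPM values were used for the order of levels and the FPKM values, deposited by the authors, for limma. The authors deposited tag signal per region for CUT&RUN and ATAC-seq, and how it was normalized or the 2 CUT&RUN libraries combined is not given in the sources used here. Only regions that reached a signal of 1 in at least 1 group were kept, and 1 was added before ratios. The scRNA-seq means were deposited by the authors, and their values are those of a natural log of 1 plus a normalized count, although their column names read as mean counts. The 9 clusters are the authors' own. A mean above 0.1 counted as detected, and 4 rows of repeated symbols were left out. Against multiplets, the authors removed cells with very many detected genes or a high mitochondrial share, and no doublet caller is named. Alternatives were DESeq2 1.42.0, limma 3.58.1 with a pseudocount of 1 or 0.1 on the FPKM, other scaling, no filter, only the 2 groups compared, a replicate block and leaving out each replicate. All 29 genes are named. Genes of the 2 other lists are named if called with an absolute log2 fold change of at least 1, at most 4 per list and comparison, and Srebf1 was added after its values were seen. The 29 genes, the lists and the markers were chosen with earlier results of these data known. Spans of Fdft1, Tm7sf2, Npc1 and Nr1h3 overlap those of other genes in the table.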

Additional observations from a re-analysis of the deposited data

How the results depend on the processing

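In the comparison of 6-OHDA with sham, 22 to 25 of the 29 genes were called under DESeq2, both limma fits, other scaling, no filter and only the 2 groups compared. The study's rule of fold and unadjusted p, applied to edgeR's values here and below, called 14. Leaving out 1 library at a time gave 0 to 24, and 0 came with either sham library left out, though the unadjusted p and the direction of the called genes held. The cause was not tested. For NDST3 against 6-OHDA, where 4 were called, other scaling, no filter and limma with 0.1 called 2 each, the study's rule 2, DESeq2 10, and the fit on only the 2 groups compared 0, and leaving out 1 library gave 0 to 7. Against sham, where 0 were called, DESeq2 called 21, the study's rule 3 and an unadjusted p 23 (an added alternative), and leaving out 1 library gave 0 to 1. The replicate numbers are shared by the titles only, and the deviations of the sham and NDST3 libraries numbered 1 had a correlation of -0.43. With the replicate number as a block, 11 genes were called in the first comparison and 0 in each of the others. With the NDST3 numbers crossed in the block, added after seeing the data, the counts were 24, 9 and 20.

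Directions held in the first comparison under all alternatives run. Every alternative kept the same single 6-OHDA library, so the variation of that library could not show in them. Values that changed sign were those of genes without a call: Hsd17b7 for NDST3 against 6-OHDA (0.057 on the log2 scale with the crossed block, and -0.50 to 0.21 with 1 library left out) and against sham (-0.29 to 0.41), Npc1 against sham (0.0155 and 0.0161 in the limma fits, and -0.10 to 0.066 with 1 library left out) and Cyp46a1 against sham (-0.0082 to 0.40). Centring H3K27ac ratios on the median of all regions, chosen after seeing the data, left 2 in place of 10 regions past 1.5-fold from 6-OHDA to NDST3 and 12 of 12 from sham to 6-OHDA. A detection limit of 0.05 gave 16 detected genes in place of 10 in scRNA-seq cluster 1, 17 in place of 9 in cluster 4, 22 in place of 13 in cluster 5 and 14 in place of 9 in cluster 9, and a size rule of 0.25 gave 5 changed pairs in place of 0. The highest cluster was the same as that of the mean for 26 genes in the 6-OHDA library and 24 in the NDST3 library. Ch25h in sham and Nr1h3 had the lowest counts and so the widest counting error.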
